A study of Mus musculus with 12 samples.

Results

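Cytokine receptor genes of mouse helper T cells were examined for BATF peaks in 2 cell types, Th9 and Th17. The 33 genes encode the chains that bind or signal for the interleukins and interferons that T cells answer to, and were listed by name with earlier results of these data known. They were 33 of the 21000 protein-coding genes of the mouse annotation, and 25 of the 5873 distinct BATF sites of the data lay at them. A gene counted as bound when the summit of a BATF peak, its highest point, fell in the gene body or within 50 kb of either end.

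The study asked where BATF binds in Th9 and Th17 cells. Naive CD4+ T cells of C57BL6/J mice were activated and cultured under Th9 conditions (IL-4, IL-2, TGF-β1 and antibody to IFNγ) or Th17 conditions (IL-6, TGF-β1, IL-23 and IL-1β with antibodies to IFNγ, IL-4 and IL-2), and BATF was immunoprecipitated on day 5 without restimulation. In the labels, Th9 has BATF libraries 1 and 2 and Th17 has BATF libraries 3 and 4. Every BATF library has its own input and IgG control, and the labels do not say whether the libraries came from separate cultures or animals. The peak lists hold positions and enrichments but no expression, so the cell type labels could not be compared with marker RNA.

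A cytokine receptor is usually a complex of a chain that recognises the cytokine and a chain shared with other receptors that carries the signal. The shared gamma chain serves IL-2, IL-4, IL-7, IL-9, IL-15 and IL-21, gp130 serves the IL-6 family, and the common beta chain serves IL-3, IL-5 and GM-CSF. These chains signal through JAK kinases and STAT factors, whereas receptors of the IL-1 family act through MyD88 and those of the IL-17 family through ACT1. BATF is a bZIP factor of the AP-1 family that binds DNA as a heterodimer with JUN proteins, often beside IRF4, and is needed for the differentiation of several helper subsets.

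The sequences that carry the findings are shown first, from the GRCm38 (mm10) genome and read 5′ to 3′. The first group holds the sites called in more than 1 library, at *Il2ra* and *Il17rb*, and the strongest other sites, at the *Il2ra* promoter and upstream of *Il4ra*. Each contains the summit and is given on the plus strand, and capitals mark the AP-1 heptamer TGAGTCA or its complement TGACTCA.
*Il2ra* upstream, chr2:11617088-11617188: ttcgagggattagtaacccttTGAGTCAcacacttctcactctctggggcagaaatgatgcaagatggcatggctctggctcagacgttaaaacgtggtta
*Il2ra* promoter, chr2:11642594-11642694: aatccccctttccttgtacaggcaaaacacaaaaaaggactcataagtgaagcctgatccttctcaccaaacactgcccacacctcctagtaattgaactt
*Il4ra* upstream, chr7:125539523-125539623: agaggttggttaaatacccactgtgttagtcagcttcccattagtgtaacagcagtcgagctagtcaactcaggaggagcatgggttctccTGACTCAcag
*Il17rb* downstream, chr14:29947073-29947173: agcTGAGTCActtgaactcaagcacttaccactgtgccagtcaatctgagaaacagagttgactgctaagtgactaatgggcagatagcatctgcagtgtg

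The second group sets the AP-1 heptamers of the other 9 receptor sites that hold one beside each other, each with 10 bases to either side on the strand that reads TGAGTCA. They were chosen because they have the heptamer within 100 bp of the summit, and capitals again mark it. The heptamer of *Il1rl1* lies outside the called peak, as does that of *Il4ra* above. Another 13 receptor sites had no exact match to it.
*Il1r1* intron, chr1:40236295-40236321, minus strand: tttgtccctaTGAGTCAattcaggagc
*Il1r2* upstream, chr1:40056008-40056034, plus strand: gcagcgttctTGAGTCAagacttttat
*Il1r2* upstream, chr1:40056086-40056112, minus strand: atctttatttTGAGTCAtttggtttca
*Il1rl1* upstream, chr1:40412968-40412994, minus strand: tttccctaacTGAGTCAccgtttcatt
*Il2rb* downstream, chr15:78479517-78479543, minus strand: aactcagcaaTGAGTCAgacctgagct
*Il7r* upstream, chr15:9556066-9556092, minus strand: tcatgagtcaTGAGTCAtgtgtaattc
*Il7r* upstream, chr15:9556073-9556099, minus strand: gggaatctcaTGAGTCAtgagtcatgt
*Il10ra* upstream, chr9:45300623-45300649, minus strand: tcatccctgcTGAGTCAtttccgggga
*Il10rb* and *Ifnar2* upstream, chr16:91366691-91366717, plus strand: gggagggtgaTGAGTCAtttgaagact
*Il12rb2* intron, chr6:67302224-67302250, plus strand: caattaagaaTGAGTCAactctgcaga
*Il23r* upstream, chr6:67514936-67514962, minus strand: acttgttcttTGAGTCActtgagtatt

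More receptor genes had a BATF peak in the pooled Th17 lists than in the pooled Th9 lists, a difference that rested on Th17 library 3 and was within the spread of the libraries. In Th17 cells 19 of 33 were bound (57.6%, 95% exact binomial interval 39.2 to 74.5%), among them 7 of the 9 genes of the gamma chain group and 5 of the 6 of the IL-1 group. In Th9 cells 5 of 33 were bound (15.2%, 5.11 to 31.9%), namely *Il12rb2*, *Il23r*, *Il1r2*, *Il1rl1* and *Il17rb*. Over all 21000 genes, the same rule called 22.5% in Th17 and 10.6% in Th9. The interval of the receptor share in Th17 cells lay above the share of all genes, and that in Th9 cells included it. Without Th17 library 3, 2 of 33 receptor genes were bound in Th17 (6.06%, 0.743 to 20.2%) and the interval included the share of all genes, 1.23%. The intervals cover counting error only, and genes that share a window are not independent.

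By library, the lists held 1709 and 241 peaks for the Th9 libraries and 4111 and 199 for the Th17 libraries. In Th9 library 1, 5 receptor genes were bound (15.2%) beside 9.43% of all genes, and in Th9 library 2 only *Il17rb* was bound (3.03%) beside 1.74%. In Th17 library 3, 19 were bound (57.6%) beside 22.2% of all genes, and in Th17 library 4 *Il2ra* and *Il1r2* were bound (6.06%) beside 1.23%. The ratio of the receptor share to the share of all genes was 1.61, 1.74, 2.6 and 4.91 in the order 1 to 4, of which the second and the last rest on 1 and 2 genes. In Th17 library 3 alone the interval of the receptor share lay above the share of all genes. It included that share in Th9 library 1 (5.11 to 31.9%), Th9 library 2 (0.0767 to 15.8%) and Th17 library 4 (0.743 to 20.2%), and both receptor peaks of Th17 library 4 were called against input and not against IgG.

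**Figure D1:**
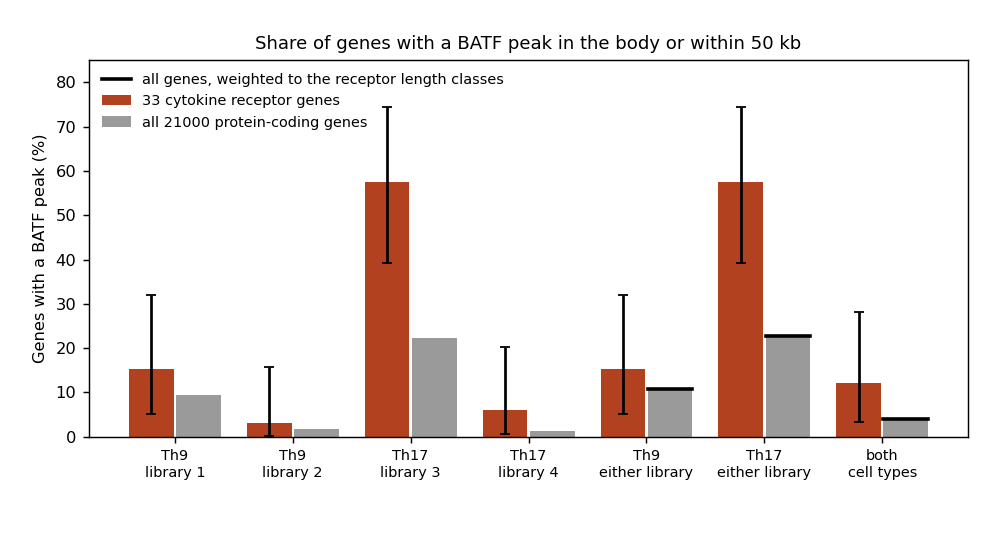
Share of genes (%) with a BATF summit in the body or within 50 kb, for the 33 cytokine receptor genes (red) and all 21000 protein-coding genes (grey), by library, for either library of a cell type and for both cell types. Error bars are 95% exact binomial intervals, and black lines give all genes weighted to the body-length classes of the receptor genes. The red bar of Th17 library 3 stands at 57.6% and its interval starts at 39.2%, above the grey bar of 22.2%.

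The number of bound receptor genes per library was 3 ± 2.83 in Th9 and 10.5 ± 12 in Th17 (SD, n = 2 each), a difference of 7.5 within the spread of the libraries (two-sided exact permutation test, p = 0.67). Set against 1000 peaks, the libraries held 2.93 and 4.15 bound receptor genes in Th9 and 4.62 and 10.1 in Th17. These values did not overlap between the cell types, and their difference of 3.8 gave p = 0.33 in the exact permutation test, the smallest value that 2 libraries against 2 allow. The values of 4.15 and 10.1 rest on 1 and 2 genes. Over all genes the same rate was 1159 and 1519 in Th9 and 1133 and 1302 in Th17, and overlapped between the cell types. The Th17 count rested on library 3, which had the most peaks. Without it 2 receptor genes remained in Th17 and the difference turned to −3, and with the 199 strongest peaks of each library 3 genes were bound in Th17 (*Il2ra*, *Il4ra* and *Il1r2*) and 1 in Th9 (*Il17rb*).

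Both cell types bound 4 receptor genes, *Il12rb2*, *Il1r2*, *Il1rl1* and *Il17rb* (12.1%, 3.4 to 28.2%, beside 3.88% of all genes). They made up 4 of the 5 genes bound in Th9 and 4 of the 19 bound in Th17. Over all genes, those bound in both were 815 of the 2224 bound in Th9 and 815 of the 4729 bound in Th17. At *Il17rb* the peaks were at the same site, whereas at *Il12rb2*, *Il1r2* and *Il1rl1* the Th9 and Th17 peaks did not overlap. How many of the 815 genes had peaks that did not overlap was not counted. Of all BATF sites, 95.3% were called in no more than 1 library, so such peaks are not particular to the receptor genes. *Il23r*, which encodes the chain specific for IL-23, was bound in Th9 library 1 and in no Th17 library. Over both cell types 20 of 33 receptor genes were bound (60.6%, 42.1 to 77.1%, beside 29.2% of all genes).

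The share of all genes was also taken at the lengths of the receptor genes. The receptor genes were longer than all genes (median 27204 against 16690 bp) and had fewer other start sites in their windows (median 1 against 2). With all genes weighted to the length classes of the receptor genes, the share bound was 22.7% in Th17, 10.8% in Th9, 3.94% in both and 29.6% in any library. In Th17 cells 5 of 12 receptor genes under 20 kb were bound beside 17.6% of all genes of that length, 10 of 15 from 20 to under 50 kb beside 21.6%, and 4 of 6 of 50 kb and over beside 35.7%. Counted by sites, the 3.84 Mb of receptor windows held 6.52 sites per Mb against 2.52 in the windows of all genes, and the ratio was 1.78, 2.4, 2.94 and 5.87 in libraries 1 to 4. The ratios of libraries 2 and 4 rest on 1 and 2 receptor sites.

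**Figure D2:**
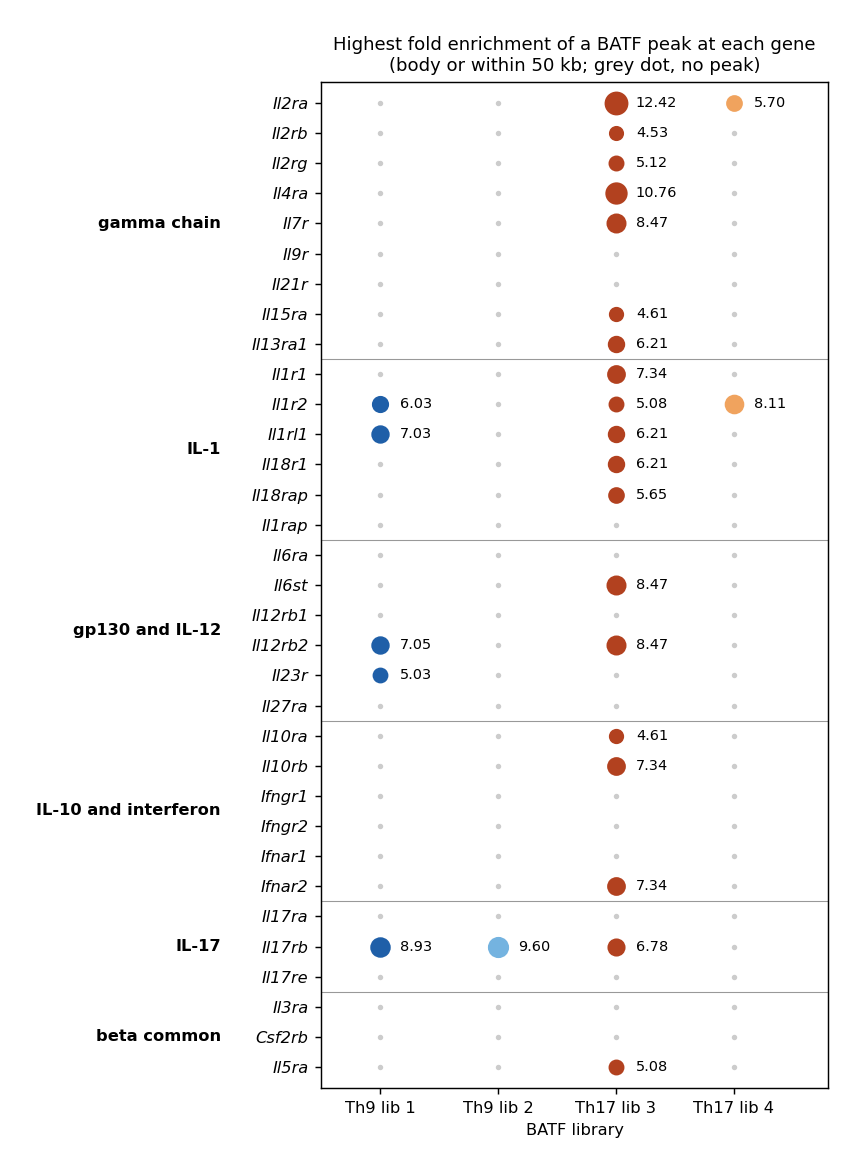
Highest fold enrichment (the deposited ratio of signal at the summit to local background) of a BATF peak at each of the 33 receptor genes in the 4 libraries. Dot area grows with the printed value and grey dots mark no peak. Most values stand in the column of Th17 library 3, where *Il2ra* has the highest, 12.42, while *Il17rb* has a value in libraries 1, 2 and 3.

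The gamma chain group was bound at 7 of 9 genes in Th17 cells and at 0 of 9 in Th9 cells, in the lists called against both controls, beside 22.5% and 10.6% of all genes. All 7 were called in Th17 library 3 and 1, *Il2ra*, also in Th17 library 4. The group includes *Il13ra1*, whose receptor pairs with the *Il4ra* product and does not use the gamma chain, and without it 6 of 8 were bound. *Il2ra*, which encodes the alpha chain (CD25) that raises the affinity of the receptor for IL-2, had 3 sites, the most in this group. The first lay 25654 bp upstream of the start site (chr2:11616987-11617232), and was called in Th17 library 3 with a fold enrichment of 7.83 (−log10 q 9.91) and in Th17 library 4 with 5.70 (3.78), with no peak in the Th9 libraries. The library 4 peak was also called against input (6.48) but not against IgG. A peak overlapping it was called in Th9 library 1 against input only, with 5.03 (3.12). This upstream site was the only receptor site called in both Th17 libraries, and its AP-1 heptamer, shown above, is centred 26 bp from the summit. Its nearest start site was that of *Rbm17* at −13939 bp, so it is counted for *Il2ra* by distance only.

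The second *Il2ra* site was in the promoter, with its summit 148 bp upstream of the start site (chr2:11642501-11642757). Its fold enrichment of 12.42 (−log10 q 18.31) in Th17 library 3 was the highest of the receptor sites and ranked 91 of the 4111 peaks of that library, and the values against IgG and input separately were 12.42 and 11.78. None of the other 3 libraries had a peak there. No exact match to the AP-1, CRE, STAT or RUNX letters was found within 100 bp of this summit. The sequence shown above holds GGACTCA, which differs from TGACTCA in 1 letter. The third site, 29386 bp past the end of *Il2ra*, lay in an intron of *Il15ra*, which encodes the chain that presents IL-15, and was weak in Th17 library 3 (fold enrichment 4.61, −log10 q 2.89). This peak, the only one counted for *Il15ra*, was called against input and not against IgG.

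*Il4ra* encodes the chain common to the IL-4 and IL-13 receptors. Its site lay 12728 bp upstream of the start site (chr7:125539415-125539606), with a fold enrichment of 10.76 (−log10 q 15.26) in Th17 library 3, rank 151 of 4111, and no peak in the other 3 libraries. The value was 10.22 against IgG and 11.25 against input. An AP-1 heptamer was centred 74 bp from the summit, and a RUNX motif lay at −68 bp on the other side. The same summit was 63886 bp from *Il21r*, the neighbouring gene for the IL-21 receptor, which made *Il21r* the unbound member nearest to the 50 kb limit.

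*Il7r*, which encodes the IL-7 receptor chain that naive and memory T cells need to survive, had 2 upstream sites, both in Th17 library 3. The farther, 32475 bp upstream, had a fold enrichment of 8.47 (−log10 q 9.30) and a STAT motif at −62 bp. The nearer, 26146 bp upstream, had 5.94 (5.15) and a pair of AP-1 heptamers directly following each other. The strongest 5 receptor sites by fold enrichment included a tie, since sites at *Il7r*, *Il6st* and *Il12rb2* shared the value of 8.47.

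The remaining genes of this group had 1 peak each, in Th17 library 3. At *Il2rb*, the signalling chain shared by IL-2 and IL-15, the peak lay 1019 bp past the gene end with a heptamer centred 1 bp from the summit and a fold enrichment of 4.53. The *Il2rb* peak was called against input and not against IgG. At *Il2rg*, the shared gamma chain itself, the peak (5.12) lay 10754 bp past the gene end and at −897 bp of the start site of *Foxo4*, in its promoter. At *Il13ra1*, a chain that binds IL-13, the peak (6.21) was in an intron. *Il9r* and *Il21r* had no peak.

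The IL-1 group was bound at 5 of 6 genes in Th17 cells and at 2 of 6 in Th9 cells, beside 22.5% and 10.6% of all genes, through 7 sites in a cluster of neighbouring genes on chromosome 1. *Il1r2* encodes the decoy receptor, which binds IL-1 without signalling. Its 3 sites were each called in a different library. Th17 library 4 had a peak 28649 bp upstream with a fold enrichment of 8.11 (−log10 q 7.93) and 2 heptamers, Th17 library 3 had a peak 27039 bp upstream with 5.08 (3.32) and no heptamer, and Th9 library 1 had a peak 18902 bp past the gene end with 6.03 (4.60). Within 100 bp of the Th9 summit, 100% of the bases were repeat-masked in the reference, and this peak was called against IgG and not against input. The Th17 library 4 peak was called against input and not against IgG.

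*Il1rl1* encodes the IL-33 receptor ST2 and had a site in Th9 library 1 and another in Th17 library 3. Th9 library 1 had a peak 16515 bp upstream with a fold enrichment of 7.03 (−log10 q 6.42) and a heptamer centred 74 bp from the summit. Th17 library 3 had a peak in an intron with 6.21 (5.02) and no heptamer. That intronic site was also 20802 bp upstream of *Il18r1*, which encodes the IL-18 binding chain, and was the only site counted for *Il18r1*.

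*Il1r1*, the signalling receptor for IL-1, had an intronic peak in Th17 library 3 with a fold enrichment of 7.34 (−log10 q 7.04) and a heptamer centred 1 bp from the summit. The peak counted for *Il18rap*, the accessory chain for IL-18, lay 35235 bp past the gene end in an intron of *Slc9a4*, with 5.65 (4.12) in Th17 library 3. *Il1rap*, the accessory chain shared by receptors of this family, had no peak other than a weak one called against input only.

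**Figure D3:**
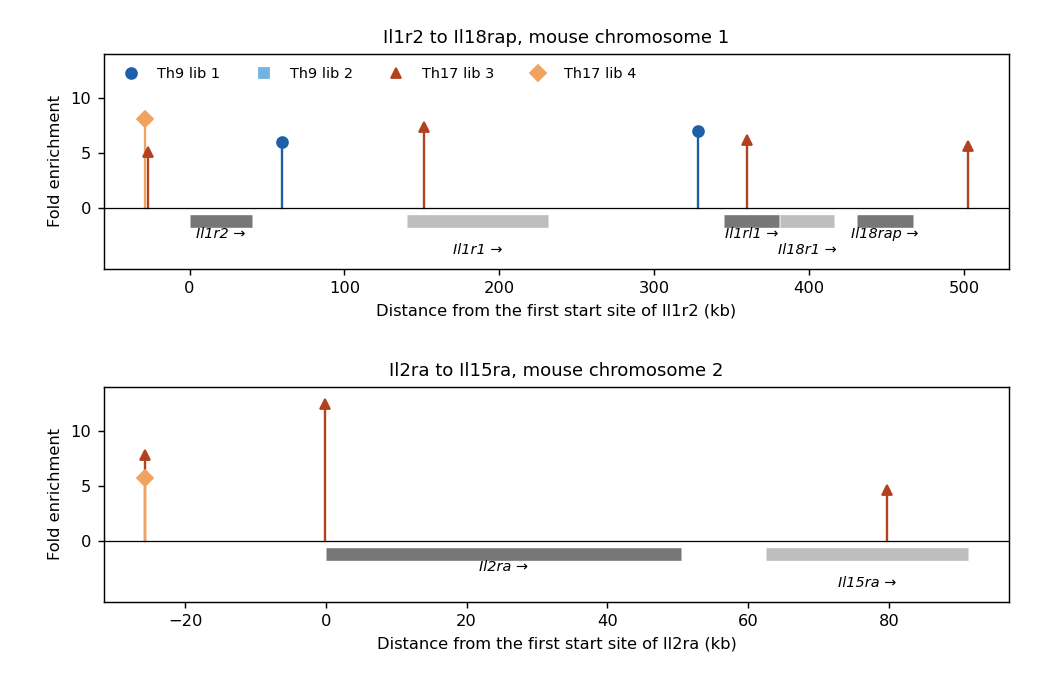
BATF peaks along the *Il1r2* to *Il18rap* cluster (top) and the *Il2ra* to *Il15ra* pair (bottom); the horizontal axis is the distance in kb from the first start site of *Il1r2* or *Il2ra*, the height of each line is the fold enrichment, and grey bars are gene bodies with arrows for the direction of transcription. In the top map the Th9 library 1 peaks at 6.03 and 7.03 stand apart from the Th17 peaks, and in the bottom map the Th17 libraries 3 and 4 coincide upstream of *Il2ra*.

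In the gp130 and IL-12 group 3 of 6 genes were bound, 2 in Th9 library 1 and 2 in Th17 library 3, beside 9.43% and 22.2% of all genes. *Il12rb2* encodes the signalling chain for IL-12 and had 3 sites. The Th17 library 3 peaks were in introns, at a fold enrichment of 8.47 (−log10 q 9.30, rank 512 of 4111) with a heptamer centred 60 bp from the summit, and at 5.08 (3.32) with none. The Th9 library 1 peak, at 7.05 (6.42), lay 33522 bp past the gene end at −8483 bp of the start site of *Serbp1*, and 90.5% of the bases within 100 bp of its summit were repeat-masked.

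*Il23r*, the receptor chain through which IL-23 acts on Th17 cells, had its peak 23138 bp upstream in Th9 library 1, at a fold enrichment of 5.03 (−log10 q 3.15), rank 1294 of 1709. Of the bases around this summit, 49.8% were repeat-masked, beside a median of 13.4% over all BATF sites. At receptor sites called in Th17 the masked share ranged from 0 to 42.8%, the highest at the *Il2ra* promoter. At the Th9 site upstream of *Il1rl1* it was 4.98%. *Il6st*, which encodes gp130, had a peak 5386 bp upstream in Th17 library 3 at 8.47 (9.30, rank 462 of 4111) with a STAT motif at 14 bp. *Il6ra*, *Il12rb1* and *Il27ra* had no peak.

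The IL-17 group was bound at *Il17rb* alone, the receptor chain for IL-25, and this site was called in more libraries than any other receptor site. Th9 library 1 gave a fold enrichment of 8.93 (−log10 q 11.43, rank 71 of 1709), with 9.60 (11.43, rank 38 of 241) in Th9 library 2 and 6.78 (6.0, rank 1056 of 4111) in Th17 library 3, and Th17 library 4 had no peak. It was called against IgG and against input in all 3 libraries, with 10.07 and 6.99 in Th9 library 1. The site (chr14:29946814-29947309) lay 49035 bp past the end of *Il17rb*, just inside the 50 kb limit, and the nearest start site was that of *Selenok* at −21247 bp. It is counted for *Il17rb* by distance only. *Il17ra* and *Il17re* had no peak.

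The IL-10 and interferon group was bound at 3 of 6 genes and the beta common group at 1 of 3, all in Th17 library 3, beside 22.2% of all genes. A site 6087 bp upstream of *Ifnar2*, a chain of the type I interferon receptor, was also 39539 bp upstream of *Il10rb*, the shared IL-10 receptor chain, with a fold enrichment of 7.34 (−log10 q 7.04) and a heptamer 8 bp from the summit. *Il10ra*, the chain that binds IL-10, had a weak site 31416 bp upstream (4.61, 2.89). Both this peak and that upstream of *Ifnar2* and *Il10rb* were called against IgG and not against input. *Il5ra*, which encodes the IL-5 binding chain, had an intronic peak of 5.08 (3.32), called against input and not against IgG. *Ifngr1*, *Ifngr2*, *Ifnar1*, *Il3ra* and *Csf2rb* had no peak within 50 kb.

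**Figure D4:**
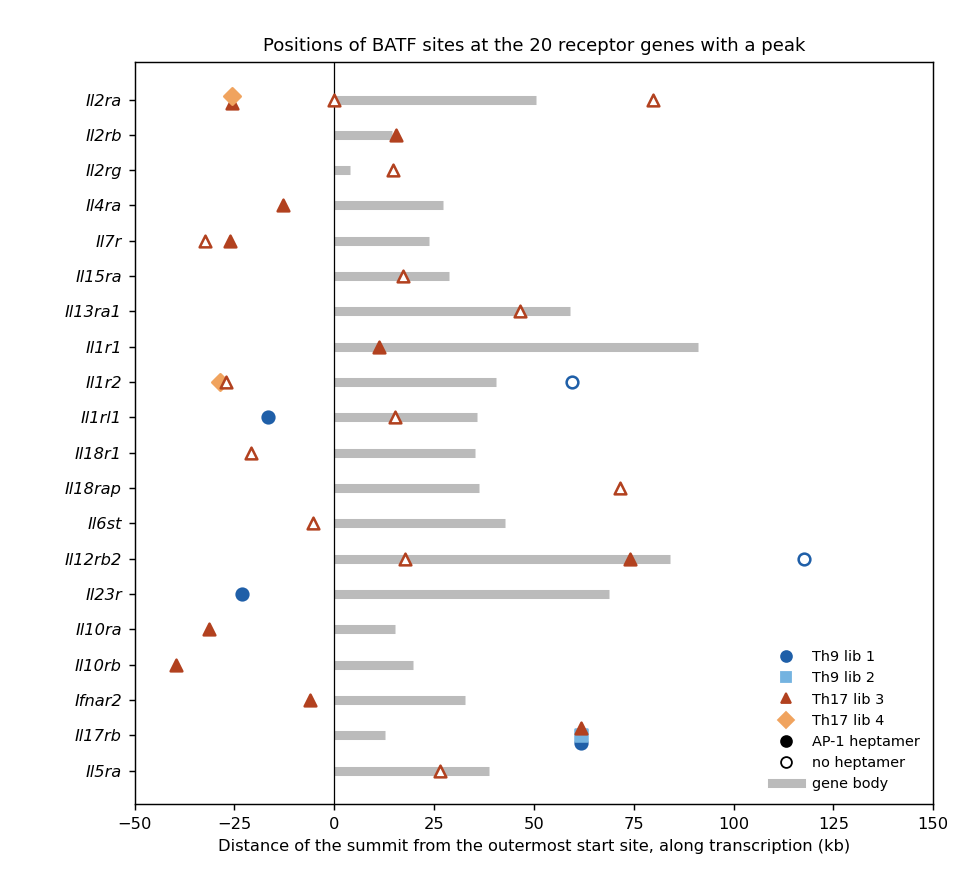
Position of each BATF summit against the gene, in kb along the direction of transcription from the outermost start site, for the 20 receptor genes with a peak. Colours and shapes give the library, filled symbols have an AP-1 heptamer within 100 bp, and grey bars are gene bodies. Sites counted for 2 genes appear in both rows, and the 3 symbols at *Il17rb* lie outside the body near the 50 kb limit.

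The 25 receptor sites were made of 28 peaks. Of these sites 20 were called in Th17 alone, 4 in Th9 alone and 1 in both, and 18 were called in Th17 library 3 alone. Most BATF sites near any gene came from that library. It called 20 of the 25 receptor sites, beside 2876 of the 4091 sites in the windows of all genes. Sites called in no more than 1 library each made up 92% of the receptor sites, beside 95.3% of all BATF sites. By position, 7 summits lay in the body of a receptor gene, 12 upstream and 6 downstream. The nearest start site belonged to a receptor gene for 15 sites and to another gene for 10, and 3 sites were counted for 2 receptor genes. The median distance to the nearest start site was 16868 bp for the receptor sites and 50262 bp for all sites, a measure that the 50 kb limit itself shortens. In the annotation 15 sites (60%, beside 55.5% of all sites) fell between genes and 8 (32%, beside 39.8%) in introns. The 2 in promoters (8%, beside 1.74%) were at *Il2ra* and at *Foxo4*, which is not a receptor gene. None fell in coding exons, which held 1.5% of all sites, or in 5′ or 3′ untranslated regions (0.306% and 1.14%). The shares of all sites include sites outside the 50 kb windows of any gene, where no receptor site can lie.

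Median fold enrichment of the receptor peaks was 7.03 in Th9 library 1, where all peaks had 5.54, and 6.21 in Th17 library 3, where all peaks had 5.65. Th9 library 2 had 1 receptor peak at 9.60 (all peaks 6.40), and Th17 library 4 had 2 with a median of 6.90 (all peaks 7.48). Of the 28 receptor peaks, 20 (71.4%) were also called against each control separately, beside 69.1% of all peaks. Another 3 were called against IgG and not input, and 5 against input and not IgG.

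The AP-1 heptamer was the most frequent of the motifs searched at the receptor sites. It lay within 100 bp of the summit at 12 of 25 receptor sites (48%, 27.8 to 68.7%) and at 997 of 5873 sites (17%, 16 to 18%). The 5873 include sites far from any gene, for which the share was not taken apart. The interval of the receptor sites lay above the share of all sites, but included it with windows of 50 bp to either side (24%, 9.36 to 45.1%, beside 12%) and with 1 mismatch allowed (72%, 50.6 to 87.9%, beside 58.4%). In equal windows placed 2000 bp away on each side, the heptamer was found in 3 of 50 at receptor sites (6%) and in 3.42% at all sites. The nearest heptamers had a median distance of 49 bp from the summit, 6 of the 12 within 50 bp and 3 within 10 bp. At all 997 sites with a heptamer the median was 29 bp, with 728 within 50 bp and 208 within 10 bp. The receptor heptamers were thus not closer to the summit than those of all sites.

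The shares were also taken by the strength of the site. Among sites with a −log10 q of 5 and over it was present at 9 of 15 receptor sites (60%, 32.3 to 83.7%) and at 30.9% of all sites, and among sites under 5 at 3 of 10 (30%, 6.67 to 65.2%) and 8.66%. In the weaker class the interval of the receptor sites included the share of all sites. The intervals of the stronger and weaker receptor sites overlapped, and their difference was not tested. The median −log10 q was 7.04 for the 12 receptor sites with a heptamer and 4.60 for the 13 without. The ranges overlapped, since the strongest site, at the *Il2ra* promoter, had no exact match.

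**Figure D5:**
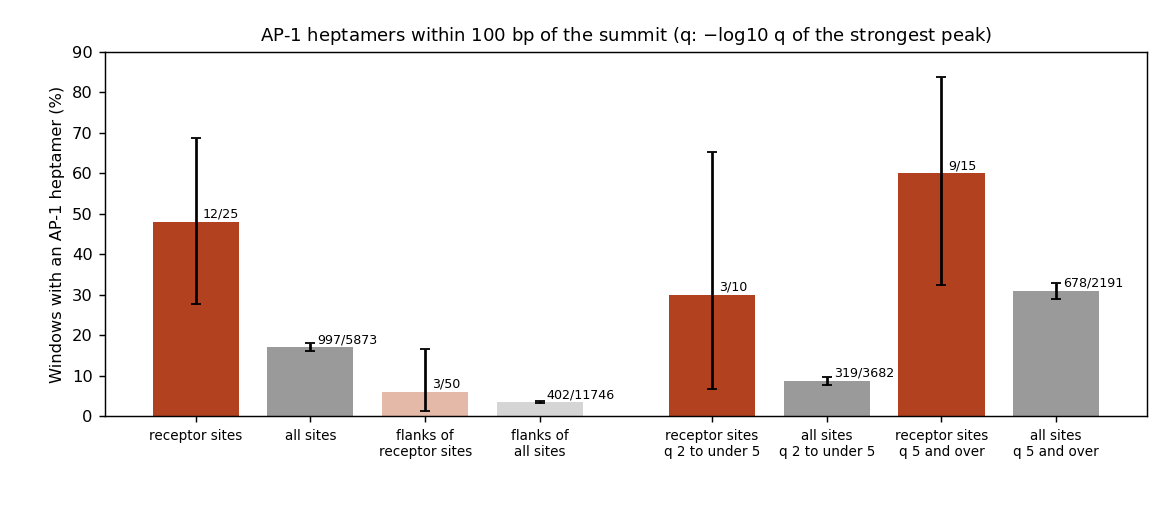
Share of windows of 100 bp to either side of the summit (%) that hold the AP-1 heptamer, at the receptor sites (red) and all BATF sites (grey), with flanking windows in pale colours and, on the right, sites split by the −log10 q of their strongest peak. Error bars are 95% exact binomial intervals and the fractions give windows with a heptamer over all windows. The receptor bars stand at 48% overall and at 30% and 60% in the split, above the grey bars of 17%, 8.66% and 30.9%.

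Other motifs were rare at the receptor sites. The CRE octamer TGACGTCA was found at 0 of 25 (interval up to 13.7%) and at 0.221% of all sites. The composite of bZIP and IRF motifs, searched as GAAA directly before the heptamer or TTTC 4 bases before it, was found at 1 site, upstream of *Il10ra* (4%, beside 1.36% of all sites), where the strand shown above reads it as TTTC directly after the heptamer. The STAT motif TTCNNNGAA was at 2 sites (8%, beside 8.87%), those at *Il6st* and *Il7r* without a heptamer, and the RUNX motif TGTGGTT at 1 (4%, beside 7.2%), that of *Il4ra*. All were searched on both strands, and a match is a description of the letters.

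Genes that act downstream of these receptors were counted by the same rule. Of 24 signalling genes, 8 were bound in Th17 (33.3%, beside 22.5% of all genes), 8 in Th9 (33.3%, beside 10.6%) and 14 in any library (58.3%, beside 29.2%). *Jak2*, a kinase of many receptors of this class, had an intronic peak in Th17 library 3 (11.29-fold enriched, −log10 q 15.60), and Th9 library 2 had an overlapping peak (5.33, 2.85). The summits were 4865 and 4791 bp from the start site. *Socs1*, an inhibitor of JAK kinases, had 2 peaks in Th17 library 3, at 10.16 and 5.65. In Th9 library 1 a single peak of 7.32 (7.21) in *Stat5b* also counted for *Stat5a* and *Stat3*, so 3 of the 8 Th9 genes shared it.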

How the data were processed

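BATF ChIP-seq of Th9 and Th17 cells was taken from 12 deposited peak lists, 3 for each of 4 BATF libraries (called against IgG, input, or both, as the list names state). According to the methods of the study and the submitters' processing notes, the authors trimmed reads with Trim Galore 0.4.3, aligned them to mm10 with Bowtie2 (version not given in the sources used here), and called peaks in paired-end mode with MACS2 2.1.0 at a q threshold of 0.01, keeping duplicates. For each peak the authors deposited a display score, a fold enrichment (a ratio of fragments at the summit over local background), the p-value and q-value on the −log10 scale, and the summit offset. The deposited lists hold no read counts, so the depth of the libraries is unknown, the number of peaks limits the precision, and a gene without a peak is not shown to be unbound. Enrichments were compared within a list.

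Main values used the lists called against both controls, curated RefSeq transcripts (annotation release 108.20200622, GRCm38), summits in the body or within 50 kb, and peaks merged into sites at 1 bp of overlap. Promoters were the 1000 bp upstream of a start site. Intervals are exact binomial (Clopper-Pearson) at 95%, and libraries were compared with a two-sided exact permutation test. Motifs were sought on both strands within 100 bp of the summit, beside flanks at 2000 bp. Repeat-masked bases are those in lower case in the reference. All member genes were accounted for. Full values went to sites called in more than 1 library, to the 5 highest by fold enrichment (with ties) and to sites at a start site, and the other members are given more briefly. Signalling genes without a peak are not named here. The members and the gene lists were chosen with earlier results of these data known. Alternatives were the single controls and their agreement, a minimum −log10 q of 5, peaks in both libraries, each library left out, the 199 strongest peaks per library, other distance limits, 50% reciprocal overlap, 50 bp windows, 1 mismatch and, chosen after seeing the data, GENCODE M21, weighting by length, the gamma chain group without *Il13ra1* and the split at a −log10 q of 5. Python 3.11.15 was used with numpy 2.4.6, scipy 1.17.1, pysam 0.24.0 and matplotlib 3.10.9. The window rule, the nearest start site, the merging of peaks and the search for AP-1 and composite motifs were tested on simulated data.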

Additional observations from a re-analysis of the deposited data

Results flagged for a closer look

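Lists called against a single control held 2 receptor peaks that the lists called against both controls did not. In Th9 library 1, a peak called against input only had its summit at −25729 bp of the start site of *Il2ra* (chr2:11616958-11617140), with a fold enrichment of 5.03 (−log10 q 3.12). It overlapped the upstream *Il2ra* site of Th17 libraries 3 and 4 and its AP-1 heptamer, at a gene with no peak in the main Th9 lists. In Th17 library 3, a peak called against input only had its summit at −48687 bp of the start site of *Il1rap* (chr16:26532994-26533177), with a fold enrichment of 3.91 (−log10 q 2.18) and no heptamer, at a gene with no other peak. Both values were flagged because they stand outside the lists called against both controls, from which bound genes were counted.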

How the results depend on the processing

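Of 95 recomputed values, 41 stayed near the main value (within 1.5 times for counts, within the 95% binomial interval of the main value for shares), 53 moved further and 1 changed sign. The difference in bound receptor genes, 14 more in Th17, ranged from −3 to 18 with a library left out, and was negative only without Th17 library 3. It was 9 with peaks called against each control separately, 0 with peaks in both libraries, 2 with the 199 strongest peaks, 6 in the gene body and 9 by the nearest start site. Bound receptor genes in Th9 (main 5) were 3 at a −log10 q of 5, 1 in both libraries, 1 with the strongest peaks, 0 in the body, 0 at 10 kb, 9 at 100 kb, 3 by nearest start site and 1 to 5 with a library left out. Those in Th17 (main 19) were 1, 3, 6, 10 and 12 for both libraries, strongest peaks, body, 10 kb and nearest start site, and 2 to 19 with a library left out. The setting of both libraries asked for a peak at the same site in each. *Il1r2*, bound at different sites in Th17 libraries 3 and 4, was therefore not counted under it. Genes bound in both cell types (main 4) were 0 for both libraries, strongest peaks, body and 10 kb, 9 at 100 kb, and 1 to 4 with a library left out.

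The share of all genes moved along with these. In Th9 it was 9.13% (IgG), 9.69% (input), 7.26% (each control separately), 3.94% (−log10 q of 5), 0.467% (both libraries), 2.38% (strongest peaks), 3.63% (body), 5.19% (10 kb), 16.9% (100 kb), 7.4% (nearest start site) and 1.74 to 9.43% with a library left out. In Th17 it was 18.8% (IgG), 16.5% (each control separately), 11.4% (−log10 q of 5), 0.719% (both libraries), 2.32% (strongest peaks), 7.19% (body), 10.5% (10 kb), 35% (100 kb), 14.7% (nearest start site) and 1.23 to 22.2% with a library left out. Receptor sites numbered 15 at a −log10 q of 5 and 7 to 25 with a library left out, and the share with a heptamer was 24% in 50 bp windows (all sites 12%), 72% with 1 mismatch (all sites 58.4%) and 45.8 to 71.4% with a library left out. GENCODE M21, chosen after seeing the data, gave the same 5 and 19 genes. The cause of these changes was not tested, other than the fewer peaks or shorter windows that the settings leave.

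No paired analysis was possible because no library number occurs in both cell types (1 and 2 belong to Th9, 3 and 4 to Th17). With 2 libraries per cell type that differ in their number of peaks from 199 to 4111, a difference between Th9 and Th17 at a receptor gene cannot be told apart from a difference between libraries.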

Other observations

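A list of 30 other cytokine and growth factor receptor genes, most of them used by other cell types, was bound at 6 genes in Th17 cells (20%, beside 22.5% of all genes), at 2 in Th9 cells (6.67%, beside 10.6%) and at 7 in any library (23.3%, beside 29.2%). These genes included *Csf3r*, the G-CSF receptor of neutrophils, with an intronic peak in Th17 library 3 (fold enrichment 5.65, −log10 q 4.12), and *Il31ra*, the IL-31 receptor, with a peak 32141 bp upstream in the same library (6.21, 5.02). *Prlr*, the prolactin receptor, was the gene of this list bound in both cell types, at 5.23 in Th9 library 1 and 6.78 in Th17 library 3, at different positions. The Th9 peak counted for *Il1rl2*, the IL-36 receptor, was the upstream *Il1rl1* site.

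Other peaks at signalling genes were at *Ptpn2*, a phosphatase that acts on JAK and STAT proteins, with intronic peaks in Th9 library 1 (8.04, −log10 q 8.49) and Th17 library 3 (9.03, 10.50) at different positions. *Jak3*, the kinase of the shared gamma chain, had a peak 39005 bp upstream in Th17 library 3 (9.73, 12.81). *Traf6*, an adaptor of the IL-1 and IL-17 receptors, had a peak 36233 bp past the gene end in the same library (8.47, 9.30). *Cish*, an inhibitor induced by STAT5, had a peak 17959 bp upstream in Th9 library 1 (5.36, 3.82).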
